A study of Mus musculus with 6 samples.

Results

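Osteocytes are the cells buried in mineralised bone, and 8 genes tied to their cell processes and to their sensing of load were followed in bulk bone RNA from mice kept on a high-fat diet (HFD) and mice kept on a control diet (CD). The genes were taken by name from the deposited table: Gja1, Pdpn, Cd44, Dstn, Fbln7, Irx5, Ptprz1 and Piezo1, which makes 8 of the 32000 genes listed. Of these, 7 were found by the symbol asked for. Destrin, asked for as Destn, is listed under its mouse symbol Dstn and was matched by its description. All 8 passed the filter on low counts and were among the 19831 genes tested.

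The samples were male C57BL/6J mice aged 18 months that had been on their diet for 12 months, and the labelled tissue was cortical bone. Elsewhere the study calls the sequenced material bone particle, while its sequencing methods describe marrow harvested from femurs and tibias, so how much marrow the RNA held is not settled, and the levels of bone cell genes are to be read with that limit. The HFD group held 3 libraries (HFD 2, 3 and 4) and the CD group held 3 (CD 1, 2 and 4). The control diet is named a chewing diet in the labels and standard chow in the study's methods. Nothing in the labels says that the libraries came from separate animals, and the spread on which each p-value rests may then be partly technical.

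Osteocytes are linked to each other and to cells at the bone surface by long actin-filled dendrites that run through narrow canals in the matrix. Fluid moved through these canals by loading is thought to pull on the dendrites, and the signal is passed on through ion channels, adhesion proteins and gap junctions. Most of the genes followed are not confined to osteocytes: connexin 43 is also made by osteoblasts, podoplanin by lymphatic endothelium and CD44 by leukocytes. In bulk RNA of this kind, fewer cells of a type and less RNA per cell cannot be told apart.

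The deposited counts summed to between 54489826 and 60500098 per library under HFD and between 55429558 and 61580025 under CD. Some libraries stood apart. Mitochondrially encoded genes took 39.3% of the counts in HFD 4 and 38.7% and 28.8% in CD 1 and CD 4, against 15.7% to 15.9% in the other libraries. The scaling factors of the trimmed mean of M-values method (TMM) ran between 0.828 and 1.28 under HFD and between 0.640 and 1.24 under CD. Transcripts of 6 intestinal epithelium markers summed to between 87.6 and 131 CPM (counts scaled to the size of the library) under HFD and to 100 CPM in CD 4, but to 0.330 and 0.219 CPM in CD 1 and CD 2. Estimates without single libraries and against CD 4 alone are therefore given for each gene. The fit against CD 4 alone takes its spread from the HFD libraries and assumes that the lone CD library varies like them, so its estimates are given with no test.

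Sequences upstream of the start sites are shown for 2 genes whose level varied widely between libraries, Gja1 and Ptprz1, and for 2 whose level varied little, Cd44 and Piezo1, so that the promoters of both kinds can be read beside the values. Each is the 250 bases before the RefSeq start in build GRCm38.p6, written 5′ to 3′ on the strand of the gene: chr10:56377050-56377299 on the plus strand for Gja1, chr6:22875252-22875501 on the plus strand for Ptprz1, chr2:102901666-102901915 on the minus strand for Cd44 and chr8:122551330-122551579 on the minus strand for Piezo1. Capitals mark the only motif matches in them.
Gja1: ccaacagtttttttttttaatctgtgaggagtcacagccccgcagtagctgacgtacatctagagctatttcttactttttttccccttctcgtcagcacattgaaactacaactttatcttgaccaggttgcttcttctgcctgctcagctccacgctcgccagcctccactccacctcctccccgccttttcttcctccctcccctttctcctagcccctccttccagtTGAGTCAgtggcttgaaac
Ptprz1: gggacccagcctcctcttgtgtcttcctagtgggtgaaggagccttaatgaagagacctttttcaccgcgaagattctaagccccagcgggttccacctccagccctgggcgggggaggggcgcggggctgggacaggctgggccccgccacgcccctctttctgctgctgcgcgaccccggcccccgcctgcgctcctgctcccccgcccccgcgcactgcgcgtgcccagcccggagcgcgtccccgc
Cd44: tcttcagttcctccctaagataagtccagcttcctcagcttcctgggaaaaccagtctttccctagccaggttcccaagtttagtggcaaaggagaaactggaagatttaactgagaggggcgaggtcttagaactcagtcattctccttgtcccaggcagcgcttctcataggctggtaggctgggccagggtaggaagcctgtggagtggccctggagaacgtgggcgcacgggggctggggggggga
Piezo1: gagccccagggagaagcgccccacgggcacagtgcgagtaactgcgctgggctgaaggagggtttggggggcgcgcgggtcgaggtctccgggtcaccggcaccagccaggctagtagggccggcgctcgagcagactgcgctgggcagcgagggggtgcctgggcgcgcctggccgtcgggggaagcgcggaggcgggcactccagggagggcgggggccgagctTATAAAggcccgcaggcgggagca

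A window was held for 7 of the 8 genes and was searched on both strands for a Runx core (TGTGGT), an AP-1 site (TGANTCA) and a TATA box (TATAAA). The Gja1 window held 1 AP-1 match, at position -19 from the start, and AP-1 matches were found in 6.75% of all 32841 windows of this length. The Piezo1 window held 1 TATA match at position -24, a motif found in 12.4% of all windows. No match to the Runx core, which 14.05% of windows held, lay in any of the 7 windows, and Pdpn, Cd44, Dstn, Fbln7 and Ptprz1 held none of the 3 motifs. Base composition differed among them. The windows of Piezo1, Ptprz1 and Dstn were 74.0%, 71.6% and 69.6% G and C with 26, 22 and 28 CpG dinucleotides, while Pdpn had 43.2% and 2 CpG and Gja1 had 50.0% and 6 CpG. The median window had 52.4% and 6 CpG. These are matches of letters and not measured binding.

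In the coordinates of GRCm38, Gja1 lies at chr10:56377330-56402513, Pdpn at chr4:143267431-143299564, Cd44 at chr2:102811141-102901665, Dstn at chr2:143915320-143943324, Fbln7 at chr2:128862981-128897034, Irx5 at chr8:92357625-92376286, Ptprz1 at chr6:22875502-23052916 and Piezo1 at chr8:122481698-122551329. Piezo1 is overlapped on the opposite strand by Ctu2, which had 5092 counts over all libraries. Whether the deposited counts used the strand is not settled by the sources used here, so reads from Piezo1 and Ctu2 may be mixed.

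Most of the 8 genes had lower estimates under HFD, and none was called at an adjusted p under 0.05 by edgeR's quasi-likelihood test with Benjamini-Hochberg adjustment. The log2 fold change, HFD minus CD, was below 0 for 7 genes and above 0 for 1, with a median of -1.05, against a median of -0.03 and 52.5% below 0 over all genes tested. For 5 of the 8 it was below -1, as for 10.1% of all genes. At an unadjusted p under 0.05, edgeR named 1 of the 8 (12.5%), in the lower direction, against 7.2% of all genes tested in that direction and 9.66% in either. All HFD libraries lay below all CD libraries for 1 of the 8, against 10.2% of all genes, and none of the 8 lay wholly higher under HFD, against 4.97%. With 8 genes, 1 gene is a step of 12.5%, so the shares with a p under 0.05 and without overlap lie within 1 gene of the background. edgeR called 0% of all genes tested. DESeq2 called 1 of the 8 (Gja1), against 1.65% of all genes to which it gave an adjusted p and 1.11% for lower calls. At an unadjusted p under 0.05, DESeq2 named 3 of the 8 as lower (Gja1, Pdpn and Ptprz1), against 5.36% of the 31931 genes to which it gave a p. That set is wider than the 19831 genes of the edgeR shares. It takes in genes below the count filter that all 8 passed, so the 2 backgrounds are not alike. Of the 8, limma on FPKM called none, against 0.0669%. Without single libraries the number with an unadjusted edgeR p under 0.05 was 5 of 8 when HFD 4 was left out, against 12.4% of all genes at that setting. It was 2 of 8 when CD 1 or CD 2 was left out, against 8.79% and 14.3% of all genes. It stayed at 1 of 8 when CD 4, HFD 2 or HFD 3 was left out, against 5.31%, 4.53% and 5.21%.

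Gja1 encodes connexin 43, the main gap junction protein of the osteocyte network, and had the lowest estimate of the set. Its level was 33.4, 39.9 and 83.3 CPM in HFD 2, 3 and 4, against 101, 134 and 386 CPM in CD 1, 2 and 4. All 3 HFD libraries lay below all 3 CD libraries on this scale, with HFD 4 and CD 1 close to each other and CD 4 far above the rest. The mean was 52.2 ± 27.1 CPM under HFD and 207 ± 156 CPM under CD (SD, n = 3 each). The edgeR log2 fold change was -1.99 ± 0.60 (SE), with a 95% interval of -3.40 to -0.57, an unadjusted p of 0.0125 and an adjusted p of 0.466. An exact two-sided permutation test gave 0.1, the smallest p that 3 against 3 libraries allow.

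The call for Gja1 differed between tools and between sets of libraries. DESeq2 gave -1.97 with an adjusted p of 0.0479. That p became 0.530 without CD 4, 0.487 without HFD 2 and 0.291 without HFD 3, and it was 0.0145, 0.0270 and 0.00443 without CD 1, CD 2 and HFD 4. With edgeR the estimate was -1.10 without CD 4 and -2.50 without HFD 4. Against CD 4 alone it was -2.88. In the authors' FPKM values the groups overlapped: Gja1 was at 3.59, 4.33 and 5.97 FPKM in HFD 2, 3 and 4, against 5.51, 14.2 and 31.0 FPKM in CD 1, 2 and 4, so that CD 1 fell inside the HFD range. These values track the same counts without the TMM factor, which was 0.640 in CD 1 and 0.828 in HFD 4.

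**Figure D1:**
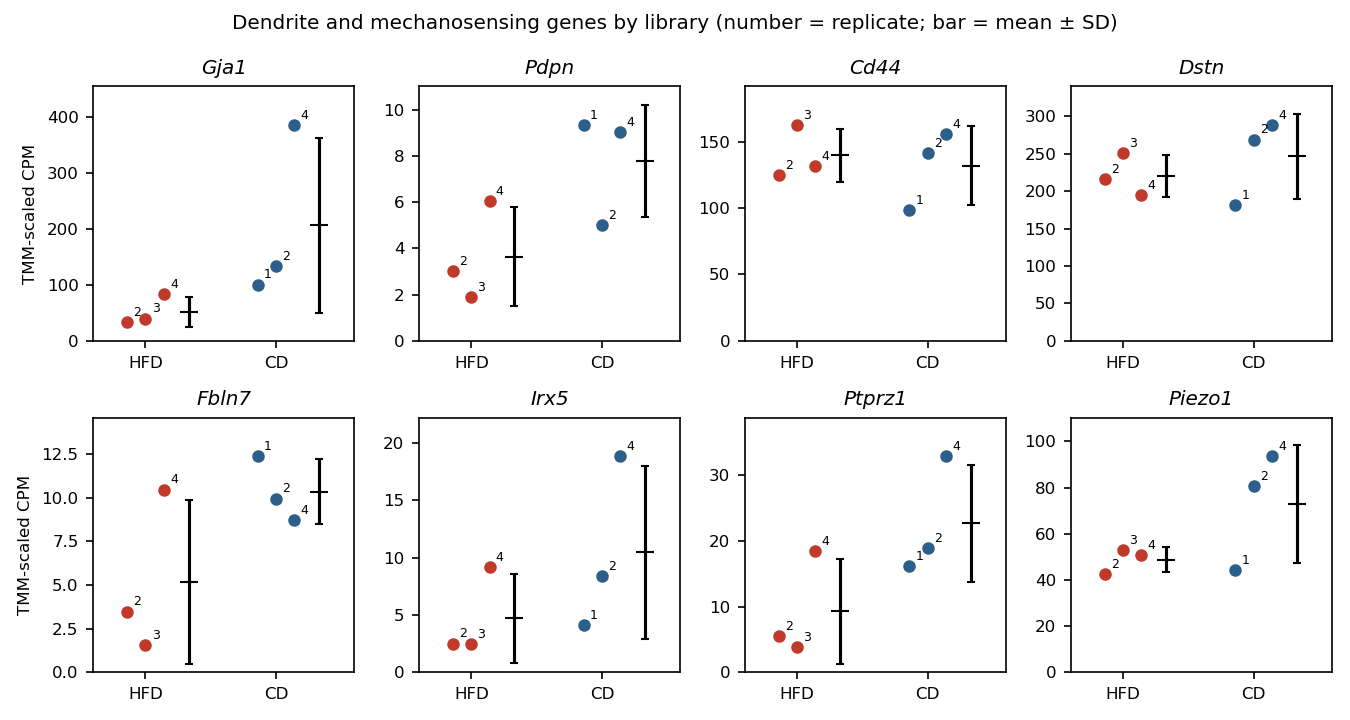
TMM-scaled CPM (vertical axes, from 0) of the 8 genes in each HFD library (red, left) and each CD library (blue, right), with the replicate number beside each point and the mean ± SD as a bar. Only for Gja1 do all HFD points lie below all CD points, and HFD 4 is the highest HFD library for Gja1, Pdpn, Fbln7, Irx5 and Ptprz1.

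Pdpn encodes podoplanin, a membrane glycoprotein that is an early osteocyte marker and is needed for dendrite growth in culture. It was read at 3.01, 1.896 and 6.05 CPM in HFD 2, 3 and 4, against 9.35, 5.00 and 9.02 CPM in CD 1, 2 and 4. HFD 4 lay above CD 2, so the groups overlapped, although on FPKM they did not: 1.82, 1.16 and 2.44 FPKM in the HFD libraries, against 2.89, 2.99 and 4.08 FPKM in the CD libraries. Non-overlap of that kind on FPKM was found for 4.17% of all genes tested. The FPKM values track the same counts without the TMM factor, so the difference is one of scale. The estimate was -1.09 ± 0.49 (SE; edgeR adjusted p = 0.528), and an exact permutation test gave 0.2. It was -1.67 without HFD 4, -0.78 without HFD 3 and -1.30 against CD 4 alone. Summed over 4 lymphatic endothelial markers, the level was 12.8 to 23.7 CPM under HFD and 26.2 to 39.6 CPM under CD. Of the 4 markers 3 had estimates below 0, among them Ccl21a at -1.70, while Prox1, the lymphatic identity factor, was at 0.21 ± 0.46 with overlapping groups. Their part in the Pdpn values was not tested.

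Cd44, the hyaluronan receptor through which podoplanin and the cortical cytoskeleton can be coupled, had the estimate closest to 0. It was read at 125, 163 and 132 CPM in HFD 2, 3 and 4, against 98.6, 141 and 156 CPM in CD 1, 2 and 4, so that the groups overlapped, with HFD 3 above every CD library and CD 1 below every HFD library. The estimate was 0.08 ± 0.27, with a 95% interval of -0.54 to 0.71 (edgeR adjusted p = 0.932). Its sign was not stable: it was -0.085 without CD 1, 0.27 without CD 4 and -0.16 against CD 4 alone. Summed over 8 leukocyte markers, the level was 973 to 1713 CPM under HFD and 658 to 1436 CPM under CD. CD 1 was the lowest and HFD 3 the highest of all libraries for both. CD 4 was at 706 CPM for these markers and was the highest CD library for Cd44. HFD 2 was at 1531 CPM for these markers and was the lowest HFD library for Cd44. The part of leukocytes in the Cd44 values was not tested.

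Dstn encodes destrin, which severs and depolymerises actin filaments, and was the most abundant of the 8. Its level was 216, 251 and 194 CPM in the HFD libraries and 182, 269 and 289 CPM in the CD libraries in the order above, and the groups overlapped. The estimate of -0.16 ± 0.28 had a 95% interval of -0.83 to 0.51 (edgeR adjusted p = 0.868). It turned to 0.064 with library sizes alone as the scale, 0.14 in limma on log2(FPKM + 1) and 0.026 without CD 4, so no direction is given for Dstn. Against CD 4 alone it was -0.39.

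Fbln7, a secreted fibulin of the extracellular matrix, was read at 3.49, 1.56 and 10.5 CPM in HFD 2, 3 and 4, against 12.4, 9.96 and 8.71 CPM in CD 1, 2 and 4. HFD 2 and 3 were low, and HFD 4 lay among the CD libraries. The coefficient of variation was 90.6% under HFD and 18.0% under CD. The estimate was -1.004 ± 0.64 (edgeR adjusted p = 0.640). It was -2.04 without HFD 4, -0.57 without HFD 3 and -0.75 against CD 4 alone. The fibroblast and periosteal markers ran in a like order under HFD, with HFD 3 lowest and HFD 4 highest, at 1052, 308 and 2009 CPM summed over 6 genes in HFD 2, 3 and 4, against 2709, 2407 and 3065 CPM in CD 1, 2 and 4, and their part in the Fbln7 values was not tested.

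Irx5, a homeobox transcription factor of the Iroquois family, was read at 2.50, 2.45 and 9.20 CPM in HFD 2, 3 and 4, against 4.12, 8.43 and 18.8 CPM in CD 1, 2 and 4. HFD 4 was above CD 1 and CD 2, and CD 4 was highest. The estimate of -1.15 ± 0.72 (edgeR adjusted p = 0.634) was -0.35 without CD 4, -2.08 without HFD 4 and -1.996 against CD 4 alone. On 162 to 1094 counts per library, counting error is small beside these differences between libraries of the same diet.

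Ptprz1 encodes a receptor-type protein tyrosine phosphatase that binds pleiotrophin, midkine and tenascin C. It was read at 5.58, 3.82 and 18.5 CPM in HFD 2, 3 and 4, against 16.2, 18.9 and 32.9 CPM in CD 1, 2 and 4. HFD 2 and 3 were below every CD library, and HFD 4 lay between CD 1 and CD 2. The estimate was -1.29 ± 0.61 (edgeR adjusted p = 0.548). It was -2.27 without HFD 4, -0.85 without CD 4 and -1.82 against CD 4 alone. Ptprz1 is also made by glial cells, and the 5 Schwann cell markers summed to 89.9 to 107 CPM under HFD and 76.2 to 125 CPM under CD. Their part in the Ptprz1 values was not tested.

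Piezo1 encodes the stretch-activated cation channel through which bone cells respond to load. It was read at 42.6, 53.0 and 50.7 CPM in HFD 2, 3 and 4, against 44.3, 80.7 and 93.5 CPM in CD 1, 2 and 4. The HFD libraries lay close together with a coefficient of variation of 11.2%, against 35.05% under CD, where CD 1 was inside the HFD range and CD 2 and CD 4 were above it. The estimate was -0.58 ± 0.30, with a 95% interval of -1.29 to 0.14 (edgeR adjusted p = 0.581). It was -0.30 without CD 4, -0.83 without CD 1 and -0.94 against CD 4 alone.

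Levels of different genes can be compared only per length, on the FPKM scale. Dstn was highest and Ptprz1 lowest in each of the 6 libraries. Dstn averaged 115 ± 36.6 FPKM under HFD and 110 ± 51.3 FPKM under CD (SD, n = 3 each). Cd44 averaged 20.4 ± 6.24 FPKM under HFD and 16.6 ± 7.54 FPKM under CD, next after Dstn under HFD and not distinct from Gja1 under CD. Gja1 and Piezo1 were alike under HFD, at 4.63 ± 1.22 and 4.801 ± 1.10 FPKM, while under CD Gja1 stood at 16.9 ± 12.9 FPKM and Piezo1 at 6.35 ± 3.39 FPKM. Piezo1 was above Gja1 in HFD 2 and HFD 3 only, and Gja1 was above Cd44 in CD 4 only. Pdpn, Fbln7 and Irx5 did not differ beyond their spread in either group, with means of 1.81 ± 0.641, 1.37 ± 0.933 and 1.302 ± 0.744 FPKM under HFD and 3.32 ± 0.661, 2.57 ± 0.676 and 2.87 ± 2.11 FPKM under CD. Ptprz1 averaged 0.559 ± 0.345 FPKM under HFD and 1.33 ± 0.637 FPKM under CD.

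Read across all 6 libraries, the genes fell into those with a wide and those with a narrow range. The highest library exceeded the lowest 11.5-fold for Gja1, 8.61-fold for Ptprz1, 7.94-fold for Fbln7, 7.68-fold for Irx5 and 4.93-fold for Pdpn. It did so 2.19-fold for Piezo1, 1.65-fold for Cd44 and 1.59-fold for Dstn. Each gene's log2 CPM was centred on its own mean, and the root mean square distance between genes over the 6 libraries was taken as a description of likeness. Cd44 and Dstn were the closest pair at 0.138 log2 units, followed by Dstn and Piezo1 at 0.254. Among the genes of wide range, Irx5 and Ptprz1 were closest at 0.424 and Pdpn and Fbln7 followed at 0.443, whereas Gja1 and Fbln7 were 0.917 apart. CD 4 was the highest library for Gja1, Irx5 and Ptprz1, and CD 1 for Pdpn and Fbln7.

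**Figure D2:**
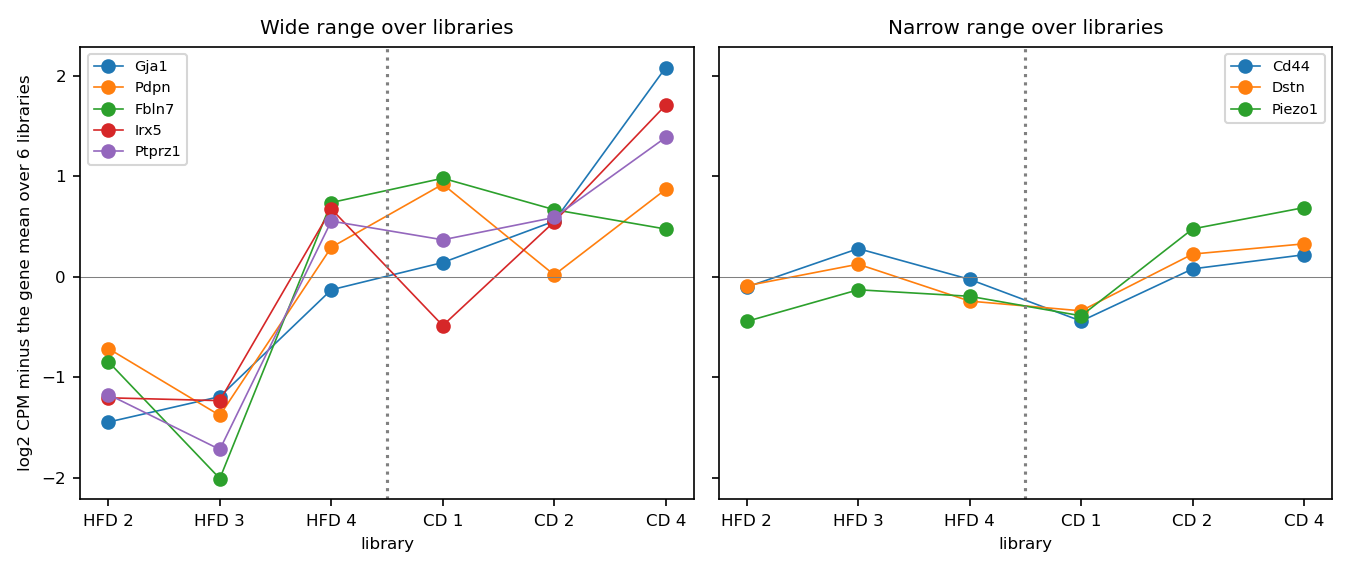
Log2 CPM of each gene minus its own mean (vertical axis, log2 units) in HFD 2, 3 and 4 (left of the dotted line) and CD 1, 2 and 4 (right of it), for the 5 genes with a 4.93-fold to 11.5-fold range (left panel) and the 3 with a 1.59-fold to 2.19-fold range (right panel). In the left panel HFD 2 and 3 lie lowest and HFD 4 lies near the CD libraries.

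By the same distance, the genes nearest to each of the 8 were sought among 11334 tested genes with a mean of at least 1 FPKM. Ibsp, which encodes the bone sialoprotein of mineralising matrix and is in the osteoblast marker list, was nearest to Gja1 at 0.090, and Scara3 was at 0.154. Ibsp was read at 88.8, 122 and 241 CPM in HFD 2, 3 and 4, against 319, 425 and 1183 CPM in CD 1, 2 and 4, in the same order of libraries as Gja1. Pdpn was nearest to Afdn at 0.057, Zfp366 at 0.068 and Gjc1, the connexin 45 gene, at 0.085. Fbln7 was nearest to the collagen gene Col8a2 at 0.124 and to Itgbl1 at 0.139. Ptprz1 was nearest to Ston1 at 0.071, to Pdgfd at 0.120 and to Cspg4, the NG2 proteoglycan gene, at 0.162. Irx5 had no gene within 0.245, the distance of the Wnt ligand gene Wnt10b. Piezo1 was nearest to Stk17b at 0.077 and Elmo1 at 0.085, Cd44 to Inpp5f at 0.032 and Dstn to Ap4m1 at 0.041, and these genes also varied little. With 6 libraries and so many candidates, nearness is a description only.

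Markers of bone cells also differed between libraries, in an order shared with some of the genes of wide range. Summed over 10 osteoblast markers, the level was 3885, 1803 and 8941 CPM in HFD 2, 3 and 4, against 7841, 21181 and 85135 CPM in CD 1, 2 and 4, and each of the 10 had an estimate below 0, with a median of -2.24. The 6 osteocyte markers summed to 28.4, 49.7 and 254 CPM in HFD 2, 3 and 4, against 141, 138 and 685 CPM in CD 1, 2 and 4. Within that list the members did not move together. Dmp1, an osteocyte matrix protein gene, was read at 14.4, 18.8 and 98.7 CPM in HFD 2, 3 and 4, against 92.9, 78.5 and 592 CPM in CD 1, 2 and 4, with an edgeR estimate of -2.54 ± 1.06. Sost, which encodes the Wnt inhibitor sclerostin of mature osteocytes, was read at 3.74, 9.05 and 52.7 CPM in HFD 2, 3 and 4, against 8.28, 12.1 and 9.83 CPM in CD 1, 2 and 4. HFD 4, the HFD library highest for osteoblast and osteocyte markers, was also the highest HFD library for Gja1, Pdpn, Fbln7, Irx5 and Ptprz1. CD 4, highest for both sums, was highest for Gja1, Irx5, Ptprz1, Piezo1 and Dstn. Its osteocyte sum of 685 CPM held 592 CPM of Dmp1. Phex was also highest in CD 4, while Mepe, Sost, Fgf23 and Dkk1 were highest in HFD 4. Pdpn and Fbln7 were highest in CD 1, whose osteoblast sum was the lowest of the CD libraries and below that of HFD 4. Col1a1 and Col1a2 carried much of that sum, at 2181 and 2505 CPM in CD 1 and 2658 and 2984 CPM in HFD 4. Ibsp, Alpl, Runx2 and Sp7 were higher in CD 1, at 319, 107, 48.0 and 35.8 CPM, than in HFD 4, at 241, 69.8, 36.2 and 28.0 CPM. The other markers of the list were lower in CD 1 than in HFD 4.

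Lists for other cell types are given by their levels and medians, and their part in the values of the 8 genes was not tested. The 5 chondrocyte markers summed to 32.5, 75.3 and 219 CPM in HFD 2, 3 and 4, against 360, 677 and 788 CPM in CD 1, 2 and 4, without overlap, and all 5 had estimates below 0 with a median of -2.32. All 5 endothelial markers had estimates below 0, with a median of -0.91 and sums of 181 to 348 CPM under HFD and 321 to 442 CPM under CD. All 6 fibroblast and periosteal markers did so too, with a median of -1.40. The skeletal muscle list had a median of -0.94, but its sums were 19585, 4271 and 22114 CPM in HFD 2, 3 and 4, against 65947, 15254 and 10758 CPM in CD 1, 2 and 4, so that CD 1 stood far above the rest and the other libraries of the 2 diets overlapped. The medians of the smooth muscle and Schwann cell lists were -0.79 and -0.26. All 5 erythroid and all 8 leukocyte markers had estimates above 0, with medians of 0.70 and 0.56, and the platelet, intestinal and adipocyte medians were 1.88, 1.63 and 0.22. No marker of the skeletal muscle, smooth muscle, Schwann cell, erythroid, leukocyte, adipocyte or intestinal lists had an unadjusted edgeR p under 0.05 in either direction.

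**Figure D3:**
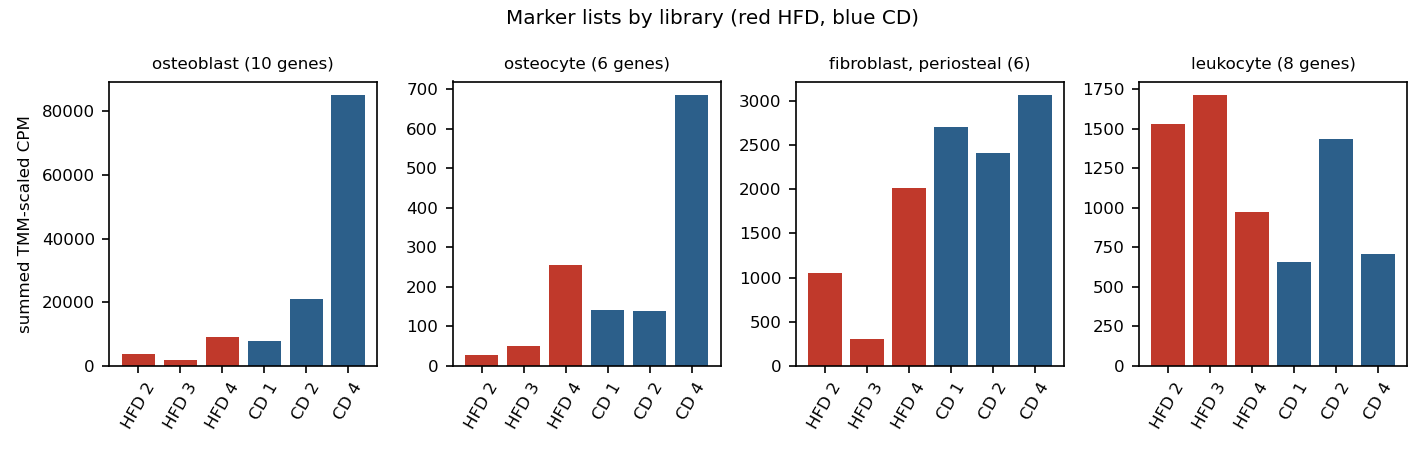
Summed TMM-scaled CPM (vertical axes, from 0, a scale for each panel) of 4 cell type marker lists in HFD libraries (red) and CD libraries (blue). CD 4 is highest for the osteoblast and osteocyte lists, for the osteocyte list mostly through Dmp1. HFD 4 is the highest HFD library for both, and HFD 3 is highest for the leukocyte list.

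The mean log2 CPM of the osteoblast list was entered in edgeR as a covariate. The Gja1 estimate was then -0.21 ± 0.45 (SE), against -1.99 ± 0.60 without it. Estimates for Pdpn and Fbln7 were -0.57 ± 0.63 and -0.43 ± 0.81. Those for Irx5, Ptprz1 and Piezo1 were 0.99 ± 0.42, 0.065 ± 0.51 and 0.064 ± 0.45, above 0. Of the 8 genes, 3 then had an estimate below 0 and 0 had an unadjusted p under 0.05. The list shares cells with the genes, since osteoblasts make connexin 43. All 10 of its markers were themselves estimated lower under HFD, with a median of -2.24. The list and the diet are confounded in these libraries, so the fit does not tell them apart and no cause is read from it. With the intestinal list as the covariate, the Gja1 estimate was -2.98 and all 8 estimates were below 0. That list summed to 0.330 and 0.219 CPM in CD 1 and CD 2 and to at least 87.6 CPM in the other libraries. The covariate thus nearly marks CD 1 and CD 2, and the diet estimate then leans on CD 4, so this fit is no independent adjustment. With the skeletal muscle list the Gja1 estimate was -2.01.

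**Figure D4:**
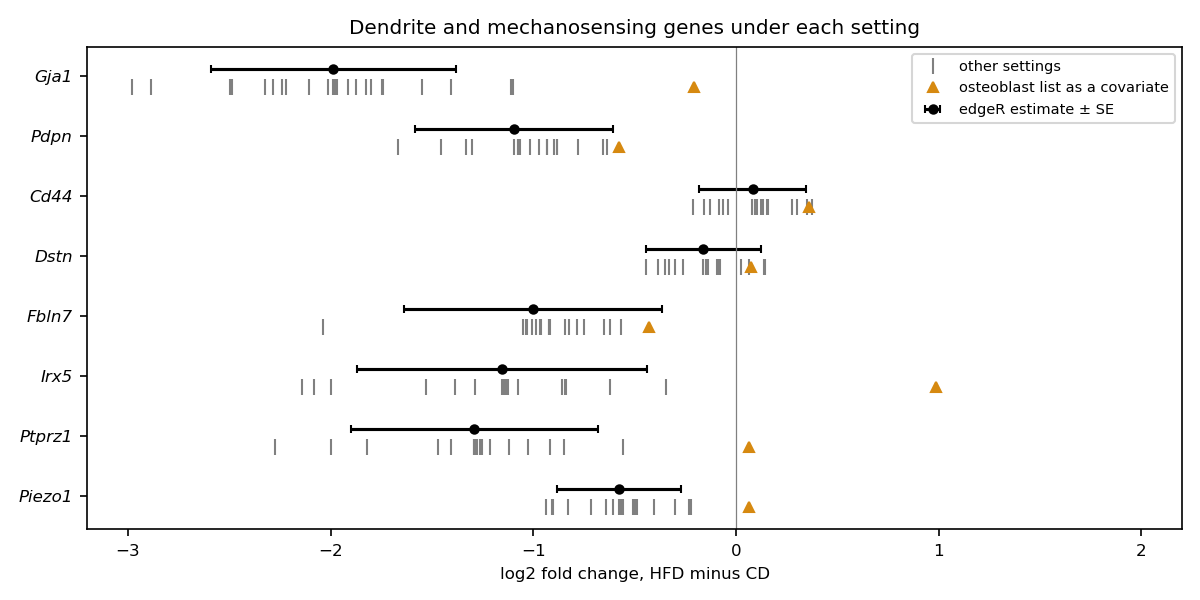
Log2 fold change, HFD minus CD (horizontal axis), of each gene: the edgeR estimate ± SE (black), the estimate with the osteoblast list as a covariate (orange) and the estimates under all other settings (grey ticks). Gja1, Pdpn and Fbln7 stay below 0 at every setting drawn, while Irx5, Ptprz1 and Piezo1 are above 0 only with the osteoblast covariate, and Cd44 and Dstn lie on either side of 0.

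Genes that act with the 8 were set out in 9 lists of 75 genes, of which 73 were tested. The lists were chosen with earlier results of these data known. Their shares, here and list by list below, are therefore a description beside all genes and not a test. Estimates were below 0 for 58 and above 0 for 15, with a median of -0.56, against 52.5% below 0 over all genes tested. At an unadjusted edgeR p under 0.05, 22 (30.1%) were lower under HFD and 1 (1.37%) was higher, against 7.2% and 2.46% of all genes tested. The groups did not overlap, lower under HFD, for 18 (24.7%), against 10.2%. After Benjamini-Hochberg adjustment edgeR called none, and DESeq2 called 3, all lower: Tnc, Piezo2 and Ccn1. The 23 genes with an unadjusted p under 0.05 (31.5% of those tested, against 9.66% of all genes) became 6 without CD 4 (8.11%, against 5.31%), 10 without HFD 2 (13.7%, against 4.53%) and 11 without HFD 3 (14.9%, against 5.21%). They became 31 without HFD 4 (42.5%, against 12.4%), 27 without CD 2 (36.5%, against 14.3%) and 22 without CD 1 (29.7%, against 8.79%). None passed with the osteoblast covariate, which was itself lower under HFD, where 2.39% of all genes did.

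Of the 7 partners of Gja1 in gap junctions and pannexin channels, 5 had lower and 2 higher estimates, with a median of -0.999. Tjp1, the scaffold protein ZO-1 that binds the connexin 43 tail, was estimated at -1.08 ± 0.42 and Panx3, a pannexin of skeletal cells, at -4.55 ± 1.37. Panx3 was read at 0.698, 0.501 and 1.66 CPM in HFD 2, 3 and 4, against 0.788, 9.78 and 55.8 CPM in CD 1, 2 and 4, so the CD mean came mostly from CD 4.

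Among 11 partners of podoplanin and CD44, 8 had lower and 3 higher estimates, with a median of -0.35. The linkers from membrane to actin that bind both proteins did not move as a group, with -0.09 ± 0.27 for Msn (moesin) and 0.51 ± 0.38 for Ezr (ezrin). Mmp14, a membrane protease needed for osteocyte dendrites in mice, was read at 44.9, 40.1 and 71.5 CPM in HFD 2, 3 and 4, against 93.7, 120 and 294 CPM in CD 1, 2 and 4. The groups did not overlap (estimate -1.70 ± 0.48, DESeq2 adjusted p = 0.0523). Hyal1, a hyaluronidase, was estimated at -1.70 ± 0.60. The single gene of the 75 that was higher under HFD at an unadjusted p under 0.05 was Clec1b, the platelet receptor of podoplanin, at 1.95, and the 4 platelet markers also had estimates above 0. Clec1b was outside the rule for named genes and was picked once its value was known.

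The 14 genes of actin severing and bundling, the pathway of destrin, had a median of -0.13, with 8 lower and 6 higher. Cofilin (Cfl1) and Cap1, which act with destrin on filaments, were estimated at 0.34 ± 0.37 and 0.36 ± 0.32. The bundling proteins Fscn1 (fascin) and Pls3 (plastin 3) were estimated at -1.35 ± 0.44 and -1.31 ± 0.48, both with an unadjusted edgeR p under 0.05. Fscn1 was read at 9.17, 8.76 and 16.1 CPM in HFD 2, 3 and 4, against 17.5, 21.6 and 47.7 CPM in CD 1, 2 and 4.

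Of the 6 other fibulins, 5 had lower estimates, with a median of -0.53. An unadjusted edgeR p under 0.05 was found for 2 (33.3%, against 7.2% of all genes in the lower direction). They were Fbln2 at -1.13 ± 0.42 and Efemp2 (fibulin 4) at -1.32 ± 0.42. Fbln1 was at -0.79 ± 0.51. Among the other Iroquois genes 3 of 5 were tested. Irx3 was at -0.83 ± 0.56, Irx6 at -0.80 ± 1.17 and Irx2 at 0.59 ± 0.62, and none had an unadjusted p under 0.05.

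All 7 ligands and relatives of Ptprz1 had estimates below 0, with a median of -0.61. Tnc, the matrix protein tenascin C, was read at 114, 137 and 242 CPM in HFD 2, 3 and 4, against 335, 554 and 927 CPM in CD 1, 2 and 4, without overlap. Its estimate was -1.88 ± 0.49 with an unadjusted edgeR p of 0.00573 and a DESeq2 adjusted p of 0.0163. L1cam, a neural adhesion molecule, was at -0.61 ± 0.23, and midkine (Mdk) was at -0.56 ± 0.36.

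The list of mechanosensitive channels other than Piezo1 held 9 genes and took in calcium channel subunits and polycystins. All 9 had estimates below 0, against 52.5% of all genes, with a median of -1.19. Of them 6 (66.7%) had an unadjusted edgeR p under 0.05, against 7.2% of all genes lower with such a p. The count for this list alone was not taken without CD 4, the library whose absence left 6 of the 23 over all lists. Piezo2, the relative of Piezo1 best known from sensory neurons, was read at 1.21, 0.867 and 1.26 CPM in HFD 2, 3 and 4, against 3.25, 2.51 and 11.8 CPM in CD 1, 2 and 4. Its estimate was -2.39 ± 0.65 (DESeq2 adjusted p = 0.0210), at a level far below that of Piezo1. Pkd1 (polycystin 1) was read at 30.2, 37.7 and 54.5 CPM in HFD 2, 3 and 4, against 60.6, 94.6 and 108 CPM in CD 1, 2 and 4, with an estimate of -1.10 ± 0.32. Tmem63a, a channel opened by membrane stretch, was at -0.16 ± 0.20, and Cacna2d1, a calcium channel subunit also made by skeletal muscle, was at -0.53 ± 0.72.

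In the adhesion relay that passes force to the cell, 7 of 8 genes had lower estimates, with a median of -0.91. Ptk2, the focal adhesion kinase, was at -0.93 ± 0.28 and the integrin genes Itgb1 and Itgav were at -0.35 ± 0.27 and -1.11 ± 0.48. Of 8 genes known to respond to load, 7 had lower estimates, 5 with an unadjusted p under 0.05, and the median was -1.09. Fos, an AP-1 subunit, averaged 439 ± 184 CPM under HFD and 869 ± 181 CPM under CD, with an estimate of -0.99 ± 0.40. Ccn1, a secreted matrix protein induced by stretch, averaged 62.0 ± 40.9 CPM under HFD and 229 ± 64.7 CPM under CD, with an estimate of -1.89 ± 0.54 and a DESeq2 adjusted p of 0.0442. Igf1 was at -0.83 ± 0.26. Leaving out libraries was not run for the DESeq2 calls of Tnc, Piezo2 and Ccn1.

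**Figure D5:**
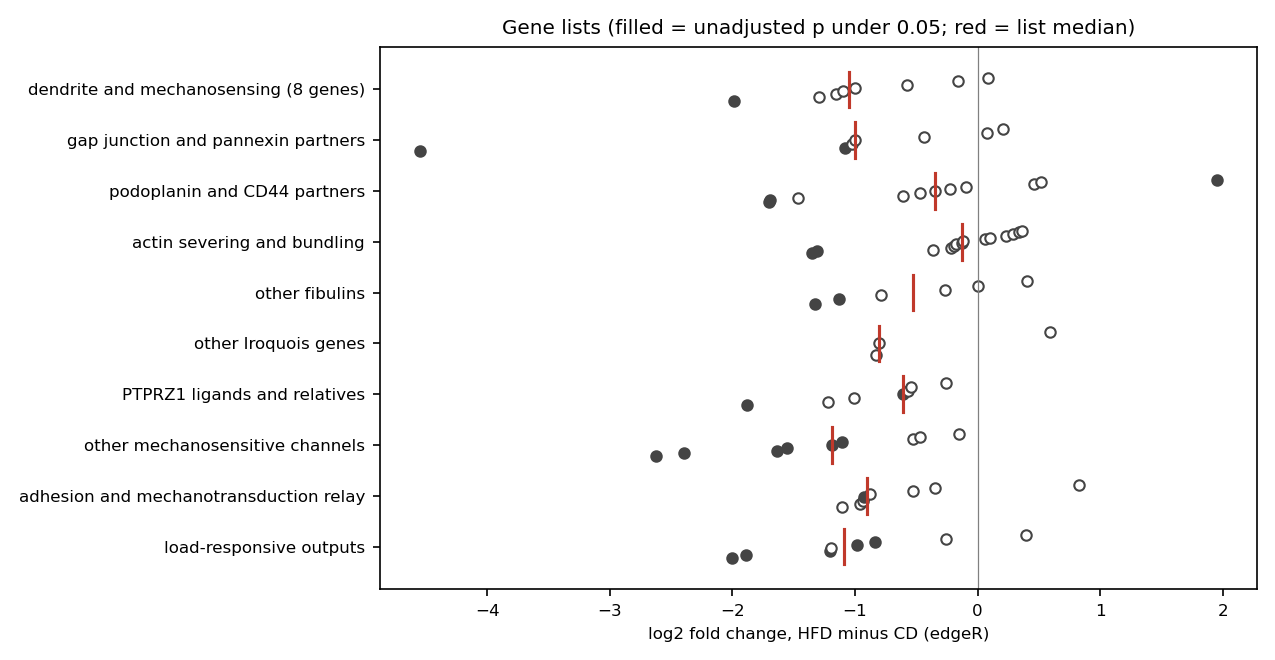
Log2 fold change, HFD minus CD (horizontal axis), of the 8 genes and of the tested genes of 9 pathway lists, with filled points for an unadjusted edgeR p under 0.05 and a red line at each list's median. The list medians run from -1.19 for the other mechanosensitive channels to -0.13 for actin severing and bundling, and no filled point lies above 0 apart from Clec1b.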

How the data were processed

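Bulk RNA-seq of 6 libraries (3 HFD, 3 CD) was analysed. The authors deposited 1 table with counts and FPKM per gene for each library. Libraries were poly(A)-selected, strand-marked and carried unique molecular identifiers. According to the submitters' processing notes, reads were handled with StringTie 1.3.4d, HISAT2 2.0.4, cutadapt 1.9 and UMI-tools, and edgeR and DESeq2 are listed too, with no roles given, while the study's methods name other aligners and counters on GRCm38, so how the counts were made, and whether by strand, is not settled. The scaling behind the deposited FPKM values is not stated in the sources used here. For Gja1 and Pdpn they ran nearly in proportion to the counts over the total counts of each library, without a TMM factor. They are thus the same counts on another scale and not a separate measurement.

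From the counts, HFD was tested against CD with edgeR 4.0.16 (TMM scaling, quasi-likelihood fit, filterByExpr with a minimum count of 10, Benjamini-Hochberg adjustment over all 19831 genes, threshold 0.05) in R 4.3.3. CPM are TMM-scaled. Intervals of 95% use the t quantile of the edgeR fit. DESeq2 1.42.0 and limma 3.58.1 on log2(FPKM + 1) or log2(FPKM + 0.1), with at least 0.5 FPKM in 3 libraries, were alternatives, as were other scalings and filters, covariates, single libraries left out and a replicate block. Exact permutation tests used log2 CPM. The fit was tested on simulated data. Named were all 8 genes, the 2 most abundant and the 2 of smallest p in each pathway list, and genes among the 3 nearest to each of the 8, of which 1 is not reported here. The 8 genes and all lists were chosen with earlier results of these data known. Cell type content was described with 14 marker lists. Promoter windows are from RefSeq.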

Additional observations from a re-analysis of the deposited data

How the results depend on the processing

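Counts of calls depended on the tool. edgeR called 0 genes, 0 of the 8 genes and 0 pathway genes, while DESeq2 called 342 genes (111 higher and 231 lower under HFD), 1 of the 8 and 3 pathway genes, and limma called 10 genes on log2(FPKM + 1) and 7 on log2(FPKM + 0.1). With each library left out in turn, edgeR called between 0 and 24 genes, 24 of them without CD 4, and the median of the 8 genes ran from -1.85 (without HFD 4) to -0.60 (without CD 4), against -1.05. With the osteoblast list as a covariate, which was itself lower under HFD, that median was 0.064. The estimates of Dstn, Irx5, Ptprz1 and Piezo1 were then 0.076, 0.99, 0.065 and 0.064. The other settings gave medians from -1.19 to -0.59. Dstn was at 0.064 with library sizes alone and at 0.14 in both limma fits, and between -0.33 (without CD 1) and 0.026 (without CD 4) with a library left out. Cd44 was between -0.085 (without CD 1) and 0.27 (without CD 4) with a library left out, at -0.042 without HFD 3, -0.13 with the intestinal covariate, -0.065 with the skeletal muscle covariate and -0.16 against CD 4 alone. The cause was not tested. The median of all genes moved to 0.24 with library sizes alone and to 0.19 and 0.27 in the limma fits, so the Dstn values there lie below that shift. Library sizes alone and DESeq2 with libraries left out were added after seeing the data.

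Only numbers 2 and 4 occur in both groups, and the labels do not tie them to a shared animal or batch. Deviations of same-numbered libraries correlated at -0.16 for number 2 and 0.18 for number 4 across genes. With the replicate block, edgeR called 0 genes, the median of the 8 was -0.78, Cd44 was at -0.21, Piezo1 was at -0.90, and 4 of the 8 and 14.9% of all genes had an unadjusted p under 0.05, against 1 of the 8 and 9.66% without it. Of the pathway genes 30 did so, against 23. In that fit CD 1 and HFD 3 each hold a replicate number of their own and add nothing to the diet estimate. It rests on numbers 2 and 4 alone, with little left to measure spread, so the shares with and without the block are not alike.

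Each of the 8 genes had at least 115 counts in every library, and the spread between libraries of the same diet exceeded counting error. With 3 libraries a group, of which CD 4, HFD 4 and CD 1 stood apart in marker or mitochondrial content, an estimate for a single gene rests on few values.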
